A study of Mus musculus with 3 samples.

Results

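Nuclear receptor genes were followed across the cells of mouse liver in single-nucleus RNA sequencing data, as the 33 listed genes of this family among the 32285 genes of the count files. The list gave the members by gene symbol. All 33 genes were found and had at least 1 unique molecular identifier (UMI, the count of an RNA molecule) in the nuclei kept.

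Nuclear receptors are transcription factors that bind DNA and, for many of them, a small fat-soluble molecule such as a steroid, a thyroid hormone, a retinoid, a fatty acid or a drug. A bound ligand changes which coactivators or corepressors the receptor holds, and many receptors pair with a retinoid X receptor on repeats of a short DNA element. In liver they are known for the control of drug, bile acid, lipid and glucose metabolism and of the daily rhythm of these pathways. Orphan receptors are members with no ligand or none that is well established.

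The study was about chitotriosidase (CHIT1), an enzyme of macrophages, in metabolic dysfunction-associated steatohepatitis (MASH) with liver fibrosis, and its comparison of diseased and normal liver is used here for the receptor genes. Nuclei came from frozen liver of 1 male C57BL/6J mouse on a normal diet (ND) and of 2 STZ-HFHC mice, replicates 1 and 2. The STZ-HFHC mice were male C57BL/6J mice given 0.2 mg streptozocin, a toxin of the insulin-producing beta cells, at 3 days of age and a high-fat, high-cholesterol diet from 4 weeks of age. Each library came from 1 mouse. No allele was changed in any group, and all 3 livers were handled by the same nuclei and droplet protocol. The ND label carries the disease state normal and the STZ-HFHC labels MASH-related liver fibrosis. The time of day at collection, and the age of these 3 mice at that time, are not given in the sources used here. The library codes of the labels begin differently for the ND mouse and for the STZ-HFHC mice, so condition and any batch that these codes mark cannot be told apart.

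The ND, STZ-HFHC 1 and STZ-HFHC 2 files held 9424, 9923 and 11642 barcodes, and any 2 libraries shared 29 to 32 of them. After filtering, 8494, 8921 and 10921 nuclei remained, with 42715797, 44350401 and 55632923 UMIs. Nuclei were clustered without the receptor genes, and 9 classes were named from marker lists, each called "-like" because the names rest on these markers alone. Of these, 6 had at least 50 nuclei in every library and were compared between STZ-HFHC and ND. The libraries held 4526, 3034 and 4779 hepatocyte-like nuclei, in the order ND, STZ-HFHC 1, STZ-HFHC 2. Counts of a class were summed over its nuclei in each library and are given as counts scaled to a total of 1000000 UMIs (CPM). The sums behind the 6 classes ran from 68052 UMIs in T or NK cell-like nuclei of ND to 35256582 UMIs in hepatocyte-like nuclei of STZ-HFHC 2, and the 95% intervals given cover counting error only. Values that follow each other without a name are in the order ND, STZ-HFHC 1, STZ-HFHC 2.

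Hepatocyte markers were at a similar level in all 6 classes of the ND liver, which limits every statement on a cell class. The 12 hepatocyte markers summed to 19688 CPM in hepatocyte-like and to 19438 CPM in B cell-like nuclei of ND, and their median ratio to hepatocyte-like nuclei was 1.03 in B cell-like, 0.999 in endothelial-like and 0.934 in stellate or fibroblast-like ND nuclei. In the STZ-HFHC libraries the same medians were 0.869 and 0.933, 0.699 and 0.815, and 0.531 and 0.592. A receptor not above the highest ratio of the hepatocyte markers in another class could not be told apart from background. A gene at a similar level in all classes would also stay under this bar. None of the hepatocyte-like clusters met the naming rule of the other classes. They were named on weaker rules, which differed between clusters 1 and 2 of ND and the rest. The hepatocyte-like class also rested on different clusters in the 2 conditions, clusters 1 and 2 in ND and clusters 14, 19 and 20 in STZ-HFHC, with a small interferon-led cluster 18 in all libraries. Cluster 19 had the T-cell gene Themis and no hepatocyte marker among its 10 leading genes, so results of this class are also given without it. Neither trait was particular to cluster 19. Themis measured 277 and 484 CPM there and 575 and 709 CPM in cluster 20, in STZ-HFHC 1 and STZ-HFHC 2. Clusters 2, 14, 18 and 20 also had no hepatocyte marker among their 10 leading genes.

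**Figure D1:**
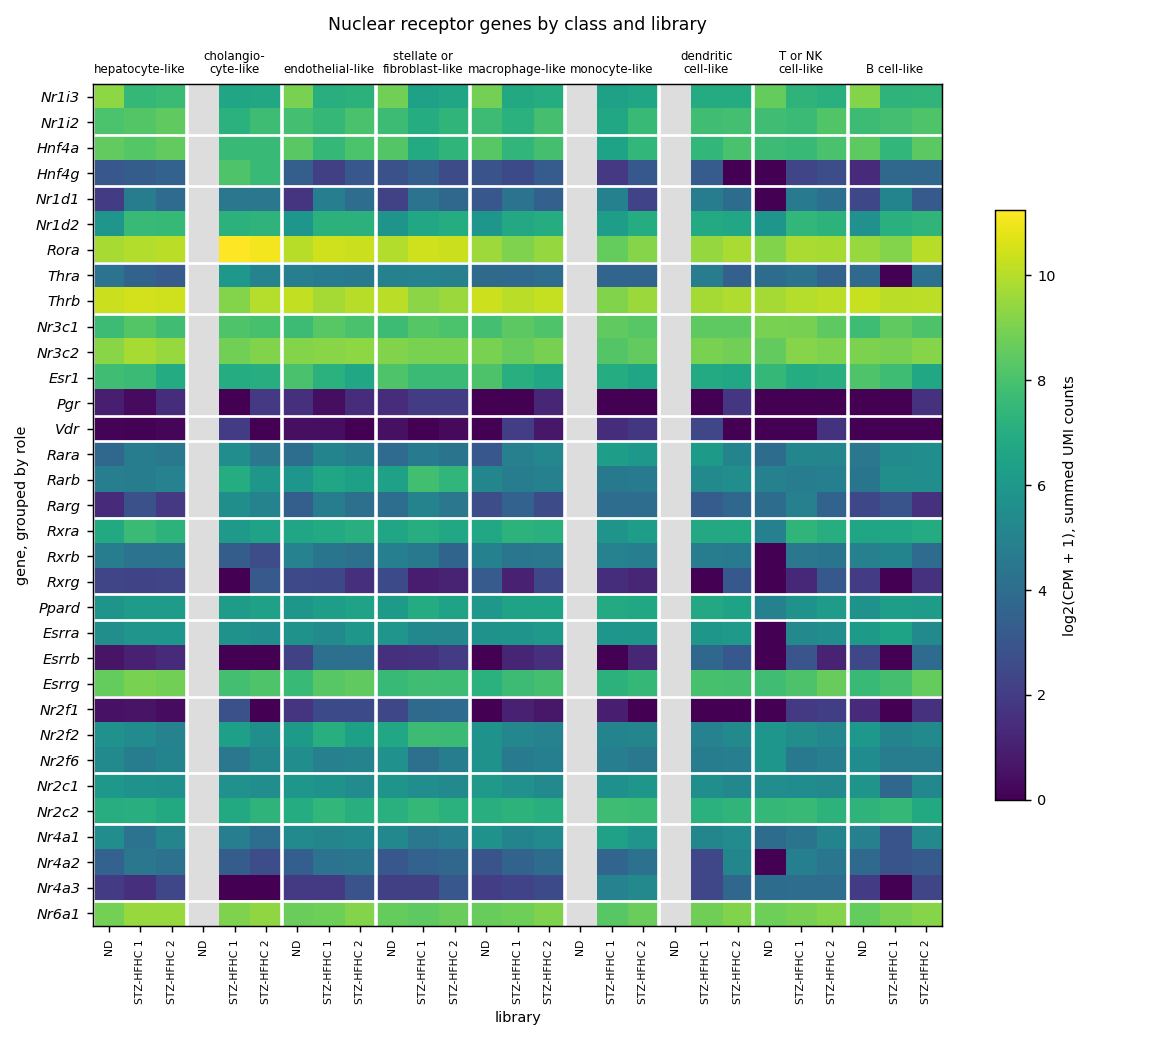
Levels of the 33 receptor genes, grouped by role (rows), in each class and library (columns), as log2(CPM + 1) of summed UMI counts; grey columns are classes with under 50 nuclei in ND. Nr1i3 is brighter in the ND column of every class, Hnf4g stands out in the cholangiocyte-like columns, and Pgr and Vdr are the darkest.

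The constitutive androstane receptor gene Nr1i3 was the member with the clearest difference between the conditions. Nr1i3 encodes a sensor of drugs and other foreign compounds that switches on genes of detoxification. It lies at chr1:171213970-171220701 on the plus strand of GRCm38, the build called mm10 in the files. The 250 bases before its start (RefSeq, GRCm38.p6, chr1:171213720-171213969, plus strand) are shown because this gene was called in more classes than any other member. The capitals mark a CACGTG E-box, an element that clock factors such as CLOCK and BMAL1 can bind.
Nr1i3: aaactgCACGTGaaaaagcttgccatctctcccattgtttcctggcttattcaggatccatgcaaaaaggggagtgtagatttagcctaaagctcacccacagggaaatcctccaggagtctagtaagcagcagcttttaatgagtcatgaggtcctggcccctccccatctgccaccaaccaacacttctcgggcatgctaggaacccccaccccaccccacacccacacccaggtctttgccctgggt
CACGTG, which reads the same on both strands, was found in 6.02% of all 32851 promoter windows of this length and in those of 3 of the 30 receptor genes with an entry, Nr1i3, Rara and Thrb.

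In hepatocyte-like nuclei Nr1i3 measured 637, 176 and 198 CPM, from 13877, 4648 and 6993 UMIs. The ND library was above both STZ-HFHC libraries, whose mean was 187 ± 16.1 CPM (SD, n = 2). The fitted log2 fold change was -1.89 ± 0.19 (SE), with an adjusted p of 0.0177 in edgeR's quasi-likelihood test over 16537 genes. The ND arm of this test is 1 library, which is assumed to vary like the STZ-HFHC mice, and its p-values measure only the spread between these samples. Without cluster 19 the change was -1.89 (adjusted p = 0.0258). Over all nuclei, named or not, Nr1i3 measured 573, 156 and 171 CPM, so the difference was also there without any naming of classes. In such sums, fewer nuclei of a type and less RNA per nucleus cannot be told apart.

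Nr1i3 was lower in STZ-HFHC in every other class tested as well, and the call was made in 5 of the 6 classes. In endothelial-like nuclei it measured 502 CPM in ND against 133 and 150 CPM in the STZ-HFHC libraries, a log2 change of -1.99 ± 0.26 (edgeR adjusted p = 0.0135). The stellate or fibroblast-like values were 455, 86.2 and 98.4 CPM, with a change of -2.39 ± 0.21 (edgeR adjusted p = 0.00052). Macrophage-like nuclei gave 470, 114 and 124 CPM and -2.16 ± 0.28 (edgeR adjusted p = 0.0048). These are classes in which Nr1i3 was not above the hepatocyte markers, so its level there could not be told apart from background. B cell-like nuclei, at 562, 157 and 164 CPM, gave -1.97 ± 0.34 (edgeR adjusted p = 1.27e-05). In T or NK cell-like nuclei the values were 382, 157 and 139 CPM, and the change of -1.29 ± 0.36 did not pass (edgeR adjusted p = 0.213), with 26 UMIs in the 53 ND nuclei.

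Measures that moved with Nr1i3 were the hepatocyte markers and its overlapping neighbour. Of the 12 hepatocyte markers, 5 fell and 0 rose in hepatocyte-like nuclei, with a median log2 change of -1.23 and a range from -2.18 to 0.19. Tomm40l, which encodes a mitochondrial import protein and shares 4691 bases with Nr1i3 on the opposite strand, measured 101, 8.2 and 21.6 CPM, a log2 change of -2.87 ± 0.51 that missed the threshold (edgeR adjusted p = 0.0535). Cell Ranger assigns reads by strand. The part of these in the Nr1i3 difference was not tested.

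**Figure D2:**
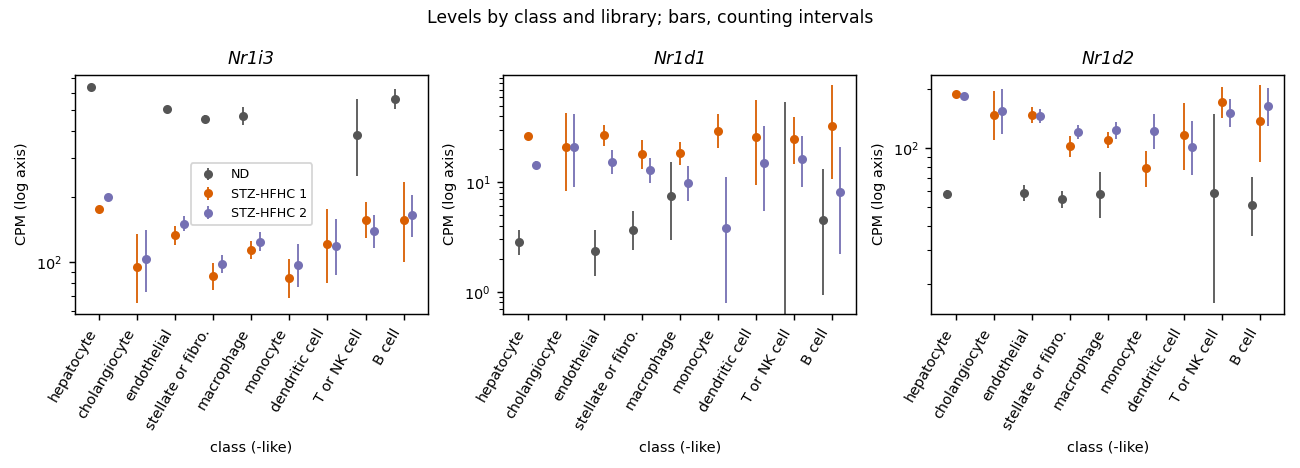
CPM of Nr1i3, Nr1d1 and Nr1d2 (log axis) in each class with at least 50 nuclei, for ND (grey), STZ-HFHC 1 (orange) and STZ-HFHC 2 (purple); bars are 95% Poisson intervals, and Nr1d1 in T or NK cell-like ND nuclei is at 0 and has no point. The ND points of Nr1i3 lie above, and those of Nr1d2 below, the STZ-HFHC points in all 6 classes compared.

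The other xenobiotic sensor, Nr1i2 (the pregnane X receptor), measured 263, 304 and 356 CPM in hepatocyte-like nuclei of ND, STZ-HFHC 1 and STZ-HFHC 2. No class gave a call for it. The list of genes taken here as induced through Nr1i3 or Nr1i2 had 23 genes, of which 22 were tested in hepatocyte-like nuclei. There, 4 rose, 3 fell and 15 did not pass, where 1.03% of all genes tested in this class rose and 1.17% fell. The median log2 change was -0.48 beside 0.01 over all genes tested. Cyp2b9, a cytochrome P450 of the subfamily that classically reports Nr1i3 activity, rose from 0.551 CPM in ND to 554 and 326 CPM (log2 change 9.51 ± 0.60, edgeR adjusted p = 0.0099). Cyp2b10 of the same subfamily rose from 3.85 to 34.3 and 53.6 CPM (edgeR adjusted p = 0.0229). Cyp2b13 had 1 UMI in ND against 315 and 276 UMIs (edgeR adjusted p = 0.0159), and the pooled ratio of 209 had a 95% interval from 37.3 to 8258 from counting error. These 3 members of the Cyp2b subfamily were higher while the receptor gene was lower. Whether each of them responds to Nr1i3 in these male mice was not tested. The fallen genes were the drug-metabolising Cyp2c54 (260, 40.7 and 34.7 CPM, edgeR adjusted p = 0.0104), Cyp2c29 (996, 247 and 295 CPM, edgeR adjusted p = 0.0181) and Cyp3a13 (211, 109 and 97.1 CPM, edgeR adjusted p = 0.0487).

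The clock receptors Nr1d1 and Nr1d2 were higher in STZ-HFHC. Both encode REV-ERB repressors of the circadian clock, and Rora encodes an activator that binds the same elements. Nr1d2 lies at chr14:18204054-18239127 on the minus strand, and the 250 bases before its start (RefSeq, GRCm38.p6, chr14:18239107-18239356, minus strand) are shown with an AGGTCA in capitals, the core element to which nuclear receptors bind.
Nr1d2: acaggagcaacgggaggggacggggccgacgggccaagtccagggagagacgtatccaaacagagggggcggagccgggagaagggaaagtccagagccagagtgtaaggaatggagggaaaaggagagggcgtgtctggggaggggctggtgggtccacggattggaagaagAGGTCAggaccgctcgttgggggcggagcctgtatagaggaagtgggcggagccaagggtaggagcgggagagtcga
Searched on both strands, AGGTCA was in 14.0% of all such windows and in those of 6 of the 30 receptor genes. The motif matches here and above are descriptions of letters, and whether a factor binds them was not measured.

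In hepatocyte-like nuclei Nr1d2 measured 57.8 CPM in ND and 189 and 185 CPM in the STZ-HFHC libraries. Both STZ-HFHC libraries were about 3.23-fold above ND on average, and the log2 change was 1.57 ± 0.20 (edgeR adjusted p = 0.0289; 1.54 and 0.0397 without cluster 19). Nr1d1 measured 2.84, 26.3 and 14.4 CPM from 62, 697 and 506 UMIs. Its log2 change of 2.72 ± 0.48 just missed the threshold (edgeR adjusted p = 0.0546), while pydeseq2 called it. Nr1d1 shares 1075 bases with Thra on the opposite strand, and Thra gave 18.3, 11.1 and 8.25 CPM (edgeR adjusted p = 0.137). In endothelial-like nuclei Nr1d1 rose from 2.33 to 26.8 and 15.3 CPM, a log2 change of 2.98 ± 0.53 (edgeR adjusted p = 0.0299). In stellate or fibroblast-like nuclei it rose from 3.69 to 18.2 and 12.8 CPM (edgeR adjusted p = 0.0177), a call that was lost in 5 of 9 other settings. Nr1d2 rose there from 54.6 to 102 and 121 CPM (edgeR adjusted p = 0.0275), a call that was lost in 3 of 9. In B cell-like nuclei Nr1d2 rose from 50.9 to 137 and 164 CPM (edgeR adjusted p = 0.0206), a call that was lost in 4 of 8 other settings. Nr1d2 in B cell-like and in stellate or fibroblast-like nuclei and Nr1d1 in endothelial-like nuclei were above the hepatocyte markers in 0 of 3 libraries. These levels could not be told apart from background, nor from a similar level in all classes. Over all nuclei Nr1d1 measured 3, 27.8 and 14 CPM and Nr1d2 57.3, 163 and 164 CPM.

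Rora did not pass in any class compared. Its hepatocyte-like values were 874, 992 and 1073 CPM, with ND the lowest. Of 12 genes known to carry elements shared by Rora, Nr1d1 and Nr1d2, 4 fell and 0 rose in hepatocyte-like nuclei, beside 1.17% and 1.03% of all genes, and the median log2 change was -1.80 beside 0.01. Npas2, a partner of BMAL1, fell from 134 to 18.1 and 17.8 CPM (edgeR adjusted p = 0.0099). Arntl, which encodes BMAL1, fell from 217 to 35.4 and 51.1 CPM (edgeR adjusted p = 0.0181). Elovl3, a fatty acid elongase with a strong daily rhythm, fell from 183 to 2.64 and 10.3 CPM (edgeR adjusted p = 0.0297). All 3 were lower in both STZ-HFHC mice than in ND. Since 1 time point per mouse was taken and the hour is not given, a difference in level and a difference in phase cannot be told apart.

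Across the 32 receptor genes tested in hepatocyte-like nuclei, 1 rose and 1 fell, Nr1d2 and Nr1i3. These 2 calls stand beside a background of 2.20% of all 16537 genes called in that class, 1.03% higher and 1.17% lower. The median log2 change of the receptors was 0.10 against 0.01 over all genes, and the range ran from -1.89 to 2.72. At an unadjusted p under 0.05, 9 receptors passed. The share of all genes under this unadjusted level was not computed, here or for the unadjusted counts given below. Such counts therefore do not show whether the listed genes passed more often than other genes. In simulated hepatocyte-like sums, 10.9% of 2-fold and 65.3% of 4-fold changes were called, so differences of these sizes can often be missed. Every gene was simulated with the same spread between libraries, so the rates in the real sums may differ.

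**Figure D3:**
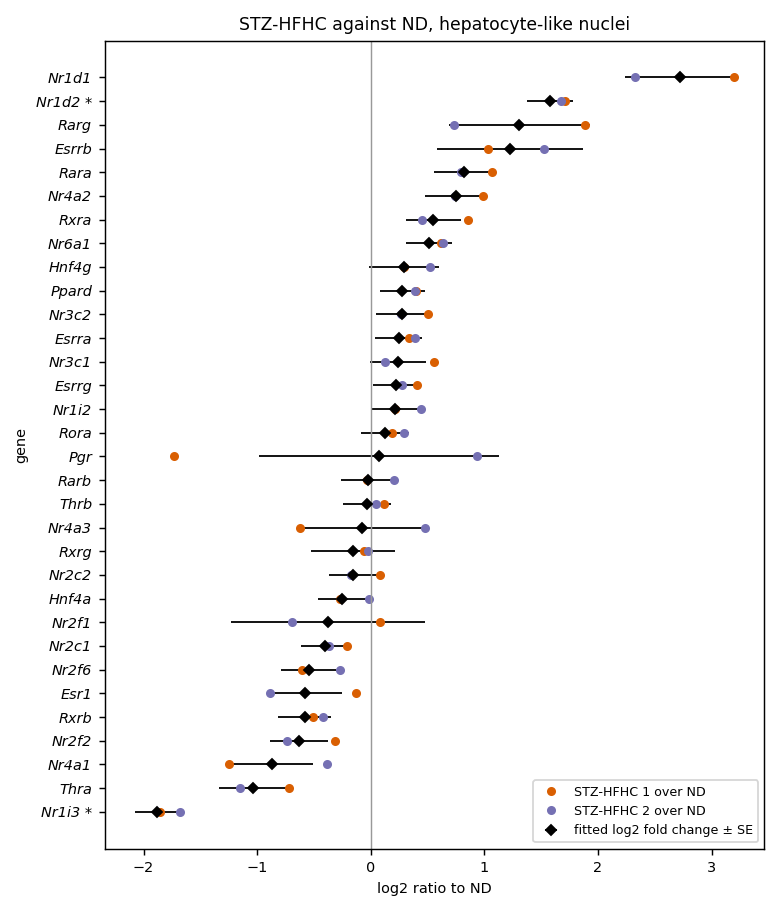
Log2 ratio of STZ-HFHC to ND in hepatocyte-like nuclei for the 32 receptor genes tested; coloured points are each STZ-HFHC mouse over ND and black diamonds the fitted log2 fold change with its SE, and a star marks an adjusted p under 0.05. Nr1i3 is the lowest at -1.89 and Nr1d1 and Nr1d2 the highest at 2.72 and 1.57, and most others lie between -1 and 1.

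Several abundant receptors had values within 1.5-fold of each other in hepatocyte-like nuclei. Hnf4a, the factor that maintains hepatocyte identity, measured 372, 308 and 369 CPM. Thrb, the main thyroid hormone receptor of hepatocytes, measured 1310, 1423 and 1354 CPM. The glucocorticoid receptor gene Nr3c1 measured 205, 302 and 224 CPM, and the mineralocorticoid receptor gene Nr3c2 609, 863 and 732 CPM. None of these 4 genes was called. Rxra, the common partner of many of these receptors, measured 113, 204 and 154 CPM (edgeR adjusted p = 0.264). Esr1, the estrogen receptor gene, measured 219, 200 and 118 CPM, and the 2 STZ-HFHC mice differed from each other by more than the first differed from ND. Nr6a1, an orphan receptor known from germ cells, measured 469, 721 and 730 CPM (edgeR adjusted p = 0.23).

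Receptor genes also varied among the hepatocyte-like clusters. Clusters 2 and 20 were led by Slc1a2 and Glul, genes of the hepatocytes next to the central vein. Nr1i3 and Esrrg, singled out after their values were seen, were higher there than in every other hepatocyte-like cluster of at least 50 nuclei in each library. They were among 6 receptors with this pattern, the others being Nr2f2, Nr4a2, Rora and Rxra. Another 5, Hnf4g, Nr1i2, Nr2c1, Nr2f6 and Nr4a3, were lower there than in every other such cluster. Some of these orders rested on near ties or few counts. In STZ-HFHC 1, clusters 20 and 19 had 286.4 and 286.5 CPM of Nr1i2 and 22 and 21.2 CPM of Nr4a2. In STZ-HFHC 2, clusters 20 and 18 had 1248 and 1213 CPM of Rora. Nr4a3 had 4, 0 and 11 UMIs in clusters 2 and 20. Nr1i3 measured 812 CPM in cluster 2 against 609 CPM in cluster 1 of ND. In STZ-HFHC 1 it measured 303 CPM in cluster 20, 170 CPM in cluster 19 and 130 CPM in cluster 14, and in STZ-HFHC 2 it measured 379, 228 and 127 CPM in the same clusters. Esrrg, an estrogen related receptor of oxidative metabolism, measured 850 against 301 CPM in ND. In the STZ-HFHC mice it measured 1118 and 983 CPM in cluster 20, 517 and 601 CPM in cluster 19, and 169 and 191 CPM in cluster 14. Cluster 19 thus lay between clusters 20 and 14 for both genes. The shares of all genes with this order, or highest or lowest in clusters 2 and 20, were not computed. Comparing only cluster 2 of ND with cluster 20 of STZ-HFHC, Nr1i3 changed by -1.29 (edgeR adjusted p = 0.036) and Nr1d2 by 1.60 (edgeR adjusted p = 0.0246).

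Hnf4g was the only member at least 3-fold higher in 1 class than in every other class in all 3 libraries. It encodes a relative of Hnf4a that is known from gut epithelium. In cholangiocyte-like nuclei, the class with bile duct markers, it measured 195, 285 and 188 CPM, from 25, 96 and 71 UMIs. The next highest class had 9.47, 13.1 and 12.1 CPM, of which the second value rested on 2 UMIs and gives no ratio. The ratio was 20.5 in ND and 15.5 in STZ-HFHC 2. The ND value came from 33 nuclei only, and cholangiocyte-like nuclei were not compared between the conditions. Rora was also highest in this class, at 1393, 2412 and 2071 CPM against 874, 992 and 1073 CPM in hepatocyte-like nuclei.

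Of the 32 receptors with over 3 UMIs in hepatocyte-like nuclei of every library, 11 were above the highest hepatocyte marker ratio in every library in stellate or fibroblast-like nuclei, beside 26.6% of all 16180 such genes. In endothelial-like nuclei there were 6, beside 19.6% of all genes, and in macrophage-like nuclei 1, beside 17.4%. No receptor passed in B cell-like nuclei, beside 9.17% of genes, and 2 passed in T or NK cell-like nuclei, beside 8.57%. The 6 in endothelial-like nuclei were Esrrb, Nr2f1, Nr2f2, Rarb, Rarg and Thra, and all 6 were also among the 11 of the stellate or fibroblast-like class. Nr2f1 and Nr2f2 encode the COUP-TF orphan receptors, known in vessels and mesenchyme, and Rarb and Rarg encode receptors of retinoic acid, which is made from vitamin A, the retinoid that stellate cells store as esters. In cholangiocyte-like nuclei of the 2 STZ-HFHC libraries, 6 receptors passed, beside 23.2% of genes. In monocyte-like nuclei of these 2 libraries 8 passed, beside 30.2%, and in dendritic cell-like nuclei 7, beside 17.6%.

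**Figure D4:**
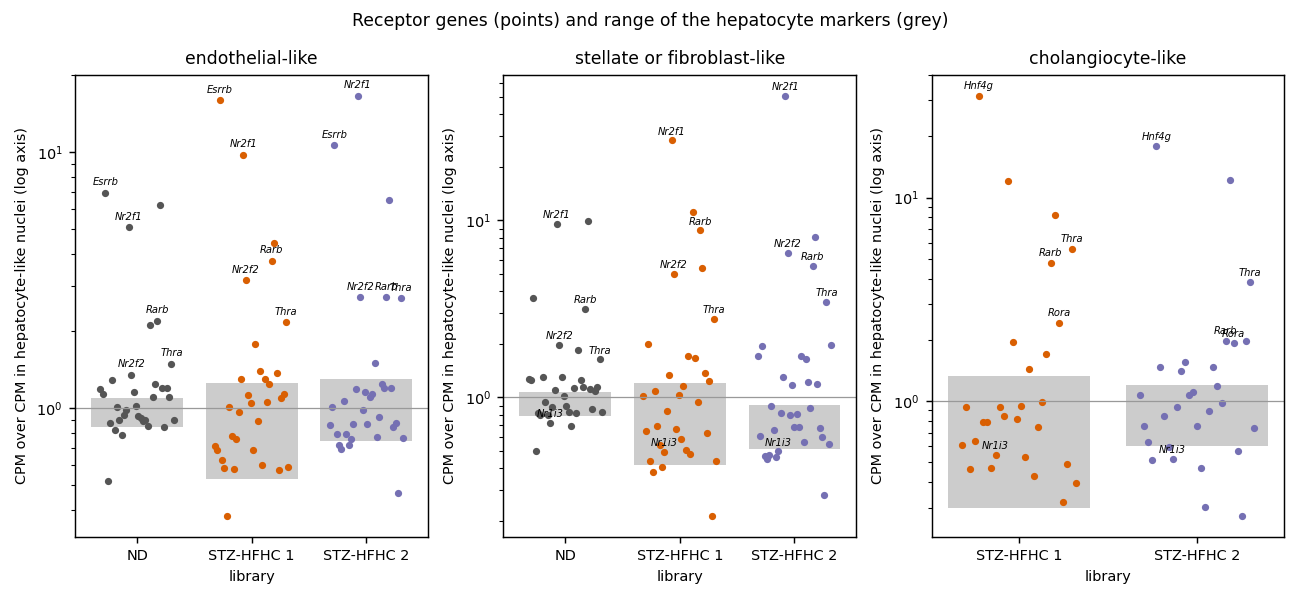
CPM of each receptor gene over its CPM in hepatocyte-like nuclei of the same library (points, log axis) in endothelial-like, stellate or fibroblast-like and cholangiocyte-like nuclei, with the range of the 12 hepatocyte markers in grey; receptors at 0 are not drawn, and ND has too few cholangiocyte-like nuclei. Nr2f1, Nr2f2, Rarb and Thra lie above the grey range in the first 2 classes and Hnf4g in the third, while Nr1i3 lies above it in no class.

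In endothelial-like nuclei 3 of 31 receptors were called, 2 higher and 1 lower, beside 4.19% of all 13795 genes, 1.80% higher and 2.39% lower. Besides Nr1i3 and Nr1d1 this was Esrrb, an estrogen related receptor, which rose from 3.5 CPM in ND to 16.8 and 16 CPM (27, 49 and 68 UMIs, log2 change 2.06 ± 0.43, edgeR adjusted p = 0.0452). The 12 endothelial markers summed to 2266 CPM in ND and to 5424 and 3547 CPM in STZ-HFHC, and the hepatocyte markers to 18420, 10042 and 13024 CPM. The part of these markers in the Esrrb difference was not tested. The Esrrb call was lost in 3 of 7 other settings. The class came from cluster 3 in ND and from clusters 4 and 17 in STZ-HFHC.

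The stellate or fibroblast-like class gave 9 calls among 32 receptors, 5 higher and 4 lower, beside a background of 19.7% of all 14148 genes, 9.71% higher and 9.96% lower. Stellate cells store retinoids and make matrix in fibrosis. The higher ones were Nr1d1, Nr1d2, Nr2f1, Nr2f2 and Rarb, and the lower ones Nr1i3, Hnf4a, Nr2f6 and Thrb. Rarb lies at chr14:16430839-16819156 on the minus strand. The 250 bases before its RefSeq start (GRCm38.p6, chr14:16575477-16575726, minus strand) are shown because Rarb is a classical target of retinoic acid, and the capitals mark a match to its response element. This start lies inside the span that GENCODE gives the gene.
Rarb: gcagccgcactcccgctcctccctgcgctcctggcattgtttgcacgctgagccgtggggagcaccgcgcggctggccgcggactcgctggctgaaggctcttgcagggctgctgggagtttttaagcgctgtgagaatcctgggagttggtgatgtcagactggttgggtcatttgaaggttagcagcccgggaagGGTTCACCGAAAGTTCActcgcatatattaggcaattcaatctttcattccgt
The motif searched on both strands was GGTTCA and AGTTCA with 5 bases of any kind between them, and it was in 2 of the 32851 windows, or 0.00609%. These letters are those of the Rarb element itself, so neither the match in Rarb nor its rarity is a result on binding. Rarb and Nr2f6 share 4624 and 5239 bases with Top2b and Ocel1 on the opposite strand.

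Rarb measured 84.5 CPM in ND and 229 and 170 CPM in STZ-HFHC, a log2 change of 1.14 ± 0.26 (edgeR adjusted p = 0.0169). Nr2f2 measured 101, 206 and 200 CPM (0.91 ± 0.22, edgeR adjusted p = 0.0217). Nr2f1 measured 4.4, 13.9 and 14.4 CPM (1.59 ± 0.41, edgeR adjusted p = 0.0281). In these 3 genes both STZ-HFHC libraries were above ND in the class as a whole. Hnf4a measured 303, 117 and 165 CPM (-1.19 ± 0.25, edgeR adjusted p = 0.0107). Nr2f6, an orphan relative of the COUP-TF receptors, measured 50.9, 16.9 and 25.5 CPM (edgeR adjusted p = 0.0165). Thrb measured 1084, 622 and 739 CPM (edgeR adjusted p = 0.0407). Hnf4a and Thrb were above the hepatocyte markers in 0 of 3 libraries in this class.

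All 9 stellate or fibroblast-like calls were lost when only the nuclei of 1 shared cluster were compared, a setting chosen after the data were seen. The ND nuclei of the class were 1045 of cluster 5, found almost only in ND, and 150 of cluster 6, the cluster of the STZ-HFHC nuclei. The 12 stellate or fibroblast markers summed to 1988 CPM in cluster 5 and to 10777 CPM in the ND nuclei of cluster 6, against 8479 and 7148 CPM in the STZ-HFHC nuclei of cluster 6. The hepatocyte markers summed to 17598 CPM in cluster 5 and to 10569, 7228 and 9438 CPM in cluster 6. Within cluster 6, Nr2f2 measured 311 CPM in ND and 206 and 200 CPM in STZ-HFHC, and Rarb 178, 229 and 170 CPM. Nr2f1 there measured 19.4, 14 and 14.4 CPM. The ND nuclei of cluster 6 thus had these 3 genes at or above at least 1 STZ-HFHC library, and their log2 changes were -0.62, 0.16 and -0.45, none of them called. Of 29 receptors tested within cluster 6, 0 were called by edgeR and 8 had an unadjusted p under 0.05, and 67 of 12659 genes were called in all. Nr1i3 was still at 211 CPM in ND against 85.8 and 98.5 CPM, a log2 change of -1.19 ± 0.25 (edgeR adjusted p = 0.1), and Nr1d2 at 41.6, 102 and 122 CPM, a change of 1.43 ± 0.35 (edgeR adjusted p = 0.165). Nr1d1 had 1, 42 and 57 UMIs there, a change of 2.42 ± 1.01 (edgeR adjusted p = 0.392). In the whole class the changes of Nr1i3, Nr1d2 and Nr1d1 were -2.39, 0.94 and 1.95. The change of Nr1i3 was thus smaller in size within cluster 6. Nr1d2 and Nr1d1 had only 15 and 1 UMIs in the ND nuclei of cluster 6, too few to compare their changes with those of the class.

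**Figure D5:**
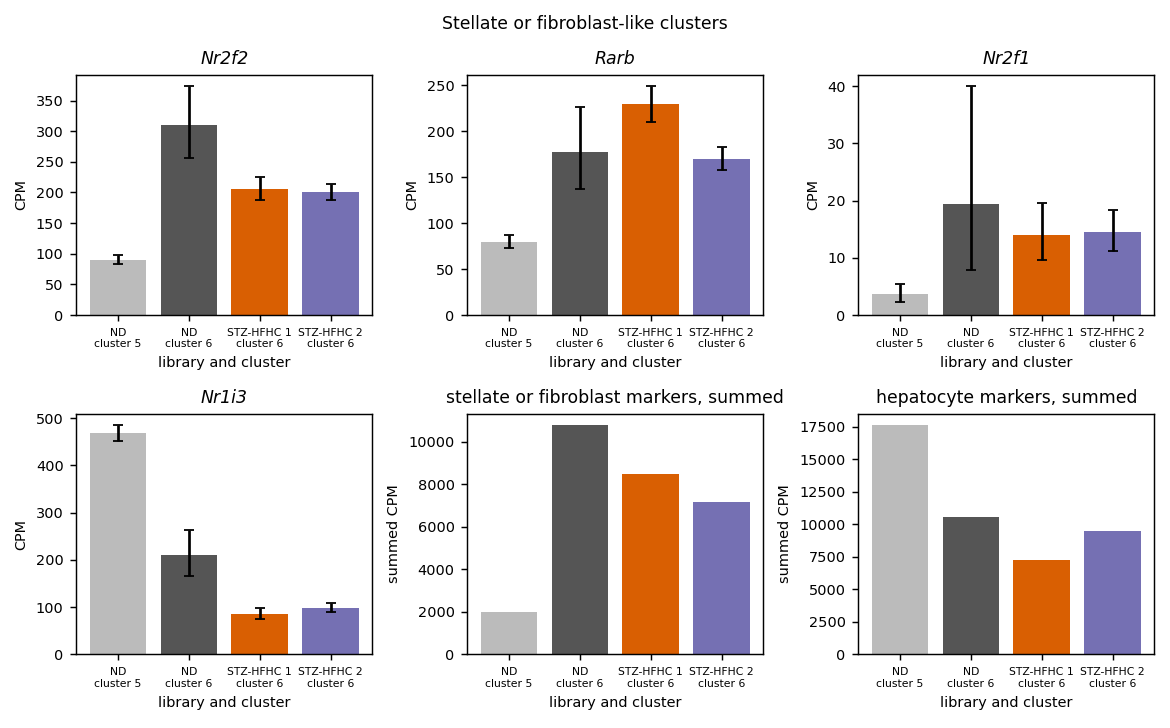
CPM of Nr2f2, Rarb, Nr2f1 and Nr1i3 with 95% Poisson intervals, and the summed CPM of the 12 stellate or fibroblast markers and the 12 hepatocyte markers, in ND nuclei of cluster 5 and in ND, STZ-HFHC 1 and STZ-HFHC 2 nuclei of cluster 6. Nr2f2, Rarb and Nr2f1 are low only in cluster 5, where the stellate or fibroblast markers are also low, and Nr1i3 is lower in both STZ-HFHC libraries than in either ND cluster.

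In macrophage-like nuclei 3 of 29 receptors were called, 1 higher and 2 lower, beside 9.34% of all 12798 genes, 4.68% higher and 4.66% lower. Esr1 fell from 273 CPM in ND to 130 and 105 CPM (log2 change -1.40 ± 0.29, edgeR adjusted p = 0.021). Rara, a retinoic acid receptor of many blood cells, rose from 7.41 to 28.5 and 35.5 CPM, with 7 UMIs in ND (1.92 ± 0.51, edgeR adjusted p = 0.043). This call was kept in 1 of 7 other settings, missed the threshold in 5 and turned to -0.33 in 1. The 236 ND nuclei came mostly from cluster 7 and the STZ-HFHC nuclei from cluster 15, which was led by Gpnmb. The macrophage markers summed to 1645, 4307 and 2819 CPM and the hepatocyte markers to 19899, 8850 and 13002 CPM, and their part was not tested. In B cell-like nuclei 3 of 22 receptors were called, 1 higher and 2 lower, beside 7.75% of all 7855 genes, 3.28% higher and 4.47% lower. These were Nr1i3, Nr1d2 and Esr1, which measured 280, 216 and 101 CPM (edgeR adjusted p = 0.0397). The Esr1 call in B cell-like nuclei was lost in 4 of 8 other settings. The B cell markers summed to 809, 2341 and 1301 CPM there and the hepatocyte markers to 19438, 12953 and 14949 CPM, with 7 of 12 lower and a median log2 change of -1.34, and their part was not tested. In T or NK cell-like nuclei 0 of 27 receptors were called by edgeR, beside 0.462% of all 9306 genes, while 5 had an unadjusted p under 0.05 and pydeseq2 called 0 of those it gave an adjusted p.

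The change from ND to STZ-HFHC was then compared between classes, each against hepatocyte-like nuclei, with the library as a block. The spread in this test comes from classes within the same 3 mice, so its p-values do not measure the spread between mice. The ND arm is again 1 library. In stellate or fibroblast-like nuclei 10 of 31 receptors differed, beside 10.4% of all 15403 genes, and in endothelial-like nuclei 1 did, beside 2.95%. The macrophage-like, B cell-like and T or NK cell-like classes gave 0 receptors, beside 3.30%, 0.0454% and 0.0260% of genes, and 8, 2 and 6 of 31 receptors respectively had an unadjusted p under 0.05. Nr2f2 was the receptor that differed in both, by 1.10 on the log2 scale in endothelial-like and by 1.61 in stellate or fibroblast-like nuclei. It measured 69.1, 130 and 83.4 CPM in endothelial-like against 51.2, 41.2 and 30.7 CPM in hepatocyte-like nuclei. The endothelial markers differed the same way by a median of 1.29 and the stellate or fibroblast markers by 1.77, in the same direction as the receptor. The part of this in the Nr2f2 difference was not tested. Within stellate or fibroblast-like cluster 6 alone, Nr2f2 changed by -0.62 from ND to STZ-HFHC, and the difference from hepatocyte-like nuclei was not computed. Nr1i3 was not called in any class, with differences from -0.46 in stellate or fibroblast-like (edgeR adjusted p = 0.102) to 0.83 in T or NK cell-like nuclei (edgeR adjusted p = 0.506).

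Retinoid, thyroid hormone, glucocorticoid and other target lists were read beside their receptors in hepatocyte-like nuclei, where 1.03% of all genes rose, 1.17% fell and the median log2 change was 0.01. Of 12 retinoid targets, 7 were tested there and 0 were called by edgeR, with 2 at an unadjusted p under 0.05. Of 11 thyroid hormone targets, 10 were tested and Thrsp, a regulator of fat synthesis, rose from 5 to 32.4 and 52.8 CPM (edgeR adjusted p = 0.029). Of 17 glucocorticoid targets, 2 rose and 0 fell. Fkbp5, a chaperone partner of the glucocorticoid receptor, rose from 86.8 to 333 and 259 CPM (edgeR adjusted p = 0.0395), and Zbtb16 from 374 to 1267 and 1057 CPM (edgeR adjusted p = 0.0459). Both were higher in each STZ-HFHC mouse than in ND, whereas Nr3c1 itself was not called. Of 20 genes that depend on Hnf4a, 2 fell, Apoa2 (659, 231 and 167 CPM, edgeR adjusted p = 0.0289), a protein of high-density lipoprotein, and Cyp7a1, the rate-limiting enzyme of bile acid synthesis (295, 83.1 and 116 CPM, edgeR adjusted p = 0.0353). The median log2 change of this list was -0.57. Of 10 targets of Ppard, a fatty acid sensor, and of 11 tested targets of the estrogen related receptors, 0 were called, with 5 and 7 at an unadjusted p under 0.05 and medians of -0.40 and -0.56.

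The 20 coregulators, the coactivators and corepressors that receptors recruit, were tested in all 6 classes. Of all genes, 19.7% were called in stellate or fibroblast-like, 9.34% in macrophage-like and 7.75% in B cell-like nuclei. The shares were 4.19% in endothelial-like, 2.20% in hepatocyte-like and 0.462% in T or NK cell-like nuclei. The marker shifts given above for these classes apply here too, and their part was not tested. None was called in hepatocyte-like nuclei by edgeR, with 3 at an unadjusted p under 0.05 and a median log2 change of 0.09. The coactivator gene Ncoa7 rose in stellate or fibroblast-like nuclei from 50.5 to 183 and 140 CPM (edgeR adjusted p = 0.0046). Ncoa3 rose in macrophage-like nuclei from 91 to 341 and 282 CPM (edgeR adjusted p = 0.0219). Ppargc1a, a coactivator of mitochondrial and fasting genes, rose in B cell-like nuclei from 114 to 248 and 459 CPM (edgeR adjusted p = 0.0046). Each of these was the 1 coregulator called in its class, and 0 were called in the other 2 classes, with 2 in endothelial-like and 3 in T or NK cell-like nuclei at an unadjusted p under 0.05.

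The lowest members gave few or no counts. Vdr, the vitamin D receptor gene, had 8, 22 and 12 UMIs in all nuclei of ND, STZ-HFHC 1 and STZ-HFHC 2, and 12 of those of STZ-HFHC 1 were in macrophage-like nuclei. Pgr, the progesterone receptor gene, had 52, 18 and 92 UMIs. Vdr was the 1 receptor not tested in hepatocyte-like nuclei, where it had 2, 1 and 4 UMIs, and no difference could be detected at this depth. Nr2f1, Esrrb and Nr4a3 reached at most 4.23 CPM in hepatocyte-like nuclei of every library.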

How the data were processed

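The authors prepared nuclei from frozen liver, made droplet 3′ libraries and counted UMIs with Cell Ranger 7.0.1 on mm10, per the labels. The deposited files hold UMI counts per gene and barcode, without normalization. The cell count that the study gives after filtering equals the barcodes of the files before it. Barcodes with 200 to 5000 genes and at most 5% mitochondrial UMIs were kept. Counts were scaled to 10000 per nucleus, and 2000 variable genes without receptor and target genes, 30 principal components and Leiden clustering (resolution 1, Scanpy 1.11.5) gave the clusters. Clusters were named within the library giving most of their nuclei, from markers at 2 times the median cluster. Hepatocyte-like clusters did not meet this rule. Clusters 14, 18, 19 and 20 were named from hepatocyte markers at 1.2 times the pooled non-hepatocyte clusters of that library. Clusters 1 and 2 were named from hepatocyte markers at 2 times the median cluster of all libraries. These rules were revised after clusters had been seen. Nuclei of unnamed clusters were left out. No doublet was removed in the main setting. Sums per class and library were tested with edgeR 4.0.16 (filterByExpr, minimum count 10, TMM, quasi-likelihood, Benjamini-Hochberg, threshold 0.05) in R 4.3.3, after a test on simulated data. Alternatives used pydeseq2 0.5.4. The members and lists were chosen with earlier results of these data known. Members were named in full when called in a class, for a class difference, or when 3-fold higher in 1 class, and at most 3 genes per direction of each target list. Gene positions are of GENCODE M21, which held 32158 of the 32285 IDs. Summed UMIs bound each value's precision.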

Additional observations from a re-analysis of the deposited data

Results flagged for a closer look

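Results were picked out where the change from ND to STZ-HFHC differed between a class and hepatocyte-like nuclei by the edgeR test of the interaction, with an adjusted p under 0.05. In endothelial-like nuclei this was Nr2f2, with a difference of 1.10 on the log2 scale. As in the comparison of classes above, p-values of this test rest on the spread among classes of the same mice. In stellate or fibroblast-like nuclei Nr2f2 differed by 1.61, Rarb by 1.19 and Thra by 0.98, all in the direction of a larger rise or a smaller fall than in hepatocyte-like nuclei. Esrra differed by -0.96, Hnf4a by -0.92, Nr1i2 by -0.83, Nr2f6 by -0.75, Thrb by -0.70, Nr6a1 by -0.59 and Nr1d2 by -0.58 in that class. The markers of stellate or fibroblast cells differed by a median of 1.77 and the hepatocyte markers by a median of -0.63 in the same test, with 10 of 12 and 7 of 12 called. Their part in the receptor differences was not tested. Most ND nuclei of the stellate or fibroblast-like class were of cluster 5. Within cluster 6 alone, the log2 change from ND to STZ-HFHC was -0.62 for Nr2f2, 0.16 for Rarb and -0.84 for Thra. It was 0.94 for Nr1i2, 0.55 for Nr6a1, 0.21 for Hnf4a, 0.10 for Thrb and 1.43 for Nr1d2. Esrra and Nr2f6 each gave -0.37. A difference from hepatocyte-like nuclei was not computed for cluster 6. Groups of 4 or more libraries, which a search for outlying samples would need, were not at hand.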

How the results depend on the processing

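No paired analysis was possible because the ND label carries no replicate number. With 1 ND mouse, few UMIs in small classes and hepatocyte RNA in all nuclei, counts of calls depended strongly on settings, and the cause was not tested. The 20 receptor calls had 167 values under other settings: 112 kept direction and threshold, 46 missed the threshold and 9 reversed. None of 40 values leaving out 1 STZ-HFHC library reversed. The choice of called genes made this likely, and the lone ND library could not be left out. Nr1i3 and Nr1d2 in hepatocyte-like nuclei kept their calls in 9 of 10 settings, with adjusted p of 0.0545 and 0.0619 at Leiden resolution 0.5. With cluster 6 alone (chosen after the data were seen, as were the settings on clusters 2, 19 and 20), stellate or fibroblast-like calls were 67 and 0 of receptors, and Nr2f1 (-0.45), Nr2f2 (-0.62), Thrb (0.10) and Hnf4a (0.21) reversed. With barcodes over the limits kept, these 4 gave -0.47, -0.70, 0.45 and 0.53. Rara in macrophage-like nuclei gave -0.33 at resolution 0.5.

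Genes called, and receptors among them, moved over 1.5-fold as follows. Resolution 0.5 gave 30 and 0 in hepatocyte-like, 0 and 0 in macrophage-like and 1440 and 7 in T or NK cell-like nuclei, and for class differences 97 (T or NK cell-like), 117 (macrophage-like) and 6 receptors (stellate or fibroblast-like). Keeping barcodes over the limits gave 4665 and 16 in endothelial-like, 214 and 3 in stellate or fibroblast-like, 147 and 1 in macrophage-like, and 1262 and 4 in T or NK cell-like nuclei. Libraries clustered alone gave 4054 and 13 in endothelial-like, 551 and 1 in stellate or fibroblast-like, 1326 and 4 in T or NK cell-like, and 238 genes in hepatocyte-like nuclei, and no macrophage-like value for want of ND nuclei. Without a filter there were 2698 and 5 in hepatocyte-like, 2288 and 5 in endothelial-like, 2295 in macrophage-like, 167 in T or NK cell-like and 1 receptor in B cell-like nuclei. Without high doublet scores there were 306 and 1 in B cell-like, 4 in T or NK cell-like, 202 in endothelial-like, 773 in macrophage-like, and 4509 and 14 in stellate or fibroblast-like nuclei, and for class differences 868 (macrophage-like), 4 (B cell-like) and 2 (T or NK cell-like). Thinning to 1000 UMIs gave 39 and 0 in B cell-like, 1360 in endothelial-like and 341 in macrophage-like nuclei. DESeq2's size factors gave 127 in T or NK cell-like and 683 in macrophage-like nuclei. Pydeseq2 gave 53 and 1 in B cell-like, 1035 in hepatocyte-like, 746 in macrophage-like, and 1658 and 4 in stellate or fibroblast-like nuclei.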

Other observations

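Monocyte-like and dendritic cell-like nuclei entered no comparison, since ND had 38 and 27 of them, and their receptor levels are given as values. Nr4a3, an orphan receptor gene that is switched on within minutes of cell activation, measured 30.4 and 38.4 CPM in monocyte-like nuclei of STZ-HFHC 1 and 2, against 1.96 and 4.23 CPM in hepatocyte-like nuclei, and its ND count was 0 of the UMIs of 38 nuclei. Nr4a1 of the same family measured 84.1 and 56.3 CPM in monocyte-like nuclei and 18.6 and 33.8 CPM in hepatocyte-like nuclei. Rara measured 77.8 and 62.6 CPM against 26 and 21.6 CPM. In monocyte-like nuclei 8 of 33 receptors, these 3 among them, were above the highest hepatocyte marker ratio in both STZ-HFHC libraries, beside 30.2% of all genes. In dendritic cell-like nuclei 7 were, beside 17.6%. These genes were chosen after their values were seen.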
